A study of Mus musculus with 15 samples.

Results

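Expression of 52 genes of the mitotic spindle, the kinetochore and cytokinesis was followed in mouse embryonic stem cells cultured with an inhibitor of Aurora A, a kinase of the mitotic spindle. The members were matched by gene identifier to a list of mouse symbols that covers the machinery of cell division, with no expression value in the rule. All 52 were found among the 49585 genes of the count table, and all 52 were among the 15223 genes with enough counts to be tested. They fall into 7 roles: 8 cyclins, Cdk1 and their regulators, 10 genes of the spindle checkpoint and the anaphase-promoting complex, 8 of the kinetochore and centromere, 3 of the chromosomal passenger complex, 9 of the spindle, 7 of cytokinesis and 7 of chromosome structure. The list was drawn up with earlier results of these data known.

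Poly(A) RNA was sequenced from wild-type E14 embryonic stem cells grown in Matrigel reduced in growth factors, in 5 media with 3 libraries each. Every culture had been kept beforehand in 2i/Lif, which held 0.4 µM PD0325901 (a MEK inhibitor), 3 µM CHIR99021 (a GSK3 inhibitor) and 4 ng/ml Lif. The cells were then set at 2000 per µl of gel under N2B27 medium with PD032+ Aurka inh (called the combination below), Aurka inh, PD032, FGF2/Activin (also written FAK in the labels) or 2iLif. The labels do not spell out PD032 or FAK, name no Aurora compound, and give no dose or time for these additives, and there was no group in N2B27 alone. They do not say whether replicates came from separate cultures, so the p-values below speak only of how these libraries vary, which may be technical.

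Entry into mitosis turns on Cdk1 bound to cyclin B, which Cdc25 phosphatases activate and Wee1 restrains. The spindle checkpoint then holds the anaphase-promoting complex, with its activator Cdc20, until every kinetochore is attached, after which securin and cyclin B are destroyed, separase opens the chromatids and the midzone proteins guide cytokinesis. Aurora A itself acts on centrosomes and spindle assembly as a protein kinase, so blocking its activity need not change its mRNA. Transcripts of this machinery rise together late in the cell cycle, and many of their promoters carry a CHR element and CCAAT boxes, bound by MuvB complexes and by NF-Y. Embryonic stem cells divide fast and express these genes at high levels.

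Promoter windows were at hand for 44 of the 52 members, as 47 windows of 300 bases from RefSeq on GRCm38.p6, reaching from 250 bases before the transcription start to 50 after it. The CHR was searched as TTTGAA or TTCGAA and the CCAAT box as CCAAT, each on both strands, and where they shared letters both were counted. Either CHR form stood in 37 of the 47 windows (78.7%), against 19.2% of all 32851 windows of the same length in the table. Counting only from 100 bases before the start to its end, 33 windows (70.2%) held one, against 8.59% of all. CCAAT stood in 34 windows (72.3%), against 37.4% of all, and 2 or more copies stood in 21 (44.7%), against 11.7%. By gene, 34 had a CHR, 31 had CCAAT, 28 had both and 7 had neither. These matches describe letters and do not show binding.

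**Figure D1:**
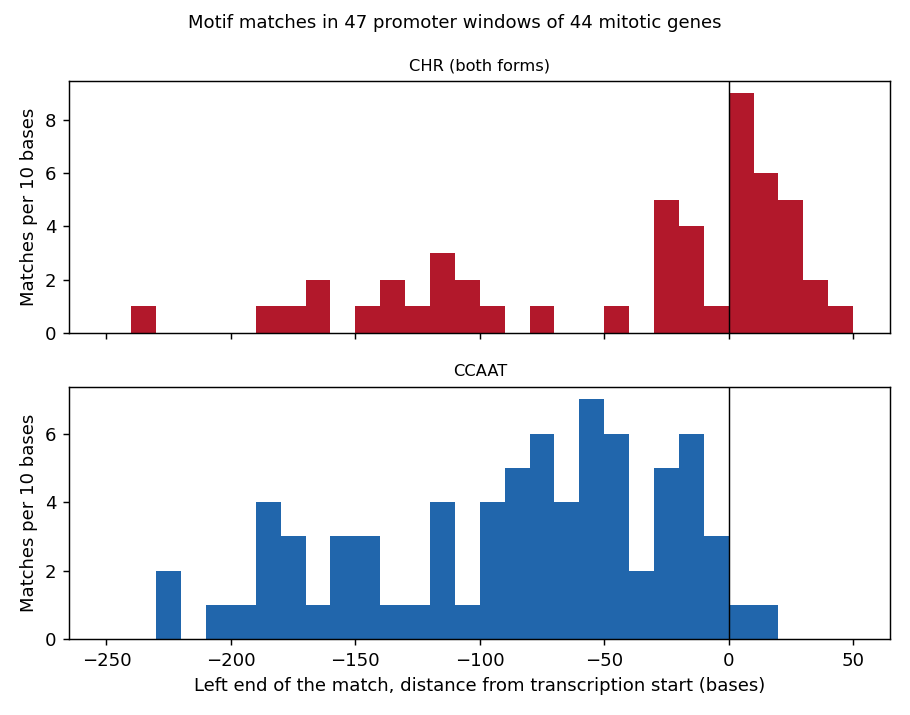
Positions of CHR matches (upper panel) and CCAAT matches (lower panel) in 47 promoter windows of 44 mitotic genes; the x axis is the distance in bases of the left end of a match from the transcription start, and bars count matches per 10 bases. The tallest CHR bar lies just after the start, and CCAAT matches lie mostly before it.

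The stretches below run from 120 bases before the start to 25 after it, read 5′ to 3′ on the strand of the gene, with CHR and CCAAT matches on either strand in capitals (TTCAAA and ATTGG are their reverse complements). The first 4 are genes whose difference between PD032+ Aurka inh and PD032 passed in every setting tried, Cdk1 and Ccnb1 are the central kinase and cyclin, and Pttg1 is the member with the widest range over the media.
Cdc25b, chr2:131186828-131186972, plus strand: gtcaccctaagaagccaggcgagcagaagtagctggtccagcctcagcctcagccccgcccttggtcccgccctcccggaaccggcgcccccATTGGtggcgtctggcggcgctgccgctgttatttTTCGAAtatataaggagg
Kif20b, chr19:34922238-34922382, plus strand: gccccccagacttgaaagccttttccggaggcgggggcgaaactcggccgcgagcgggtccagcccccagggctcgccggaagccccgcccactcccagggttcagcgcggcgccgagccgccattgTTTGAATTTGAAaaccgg
Cenpa, chr5:30666766-30666910, plus strand: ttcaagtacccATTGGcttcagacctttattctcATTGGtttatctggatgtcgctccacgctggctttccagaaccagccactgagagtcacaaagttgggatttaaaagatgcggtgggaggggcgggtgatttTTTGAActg
Nusap1, chr2:119618178-119618322, plus strand: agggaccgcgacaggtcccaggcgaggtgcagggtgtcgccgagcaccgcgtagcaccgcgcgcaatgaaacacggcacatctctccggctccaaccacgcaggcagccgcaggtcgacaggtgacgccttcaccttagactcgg
Cdk1, chr10:69352888-69353032, minus strand: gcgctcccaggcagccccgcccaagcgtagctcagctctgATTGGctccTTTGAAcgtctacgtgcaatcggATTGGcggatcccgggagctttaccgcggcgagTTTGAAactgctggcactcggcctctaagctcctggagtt
Ccnb1, chr13:100786462-100786606, minus strand: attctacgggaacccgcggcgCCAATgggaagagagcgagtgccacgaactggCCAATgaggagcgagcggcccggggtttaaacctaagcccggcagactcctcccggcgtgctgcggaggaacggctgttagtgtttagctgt
Pttg1, chr11:43425957-43426101, minus strand: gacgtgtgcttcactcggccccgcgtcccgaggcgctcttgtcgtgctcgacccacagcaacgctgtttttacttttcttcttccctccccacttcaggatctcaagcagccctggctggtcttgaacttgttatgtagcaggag
Cdc25b and Cenpa, which passed in opposite directions below, both had a CHR and CCAAT in these stretches. Kif20b had a pair of adjoining CHR matches and no CCAAT, Ccnb1 had CCAAT alone, and Nusap1 and Pttg1 had neither in the stretch printed. The Pttg1 window (43425932 to 43426231) lies within the gene as annotated, whose upstream end is at 43426251, and bases beyond that end were not searched. The windows of Kif2c, Cdca8 and Kif4 and the Bub3 window from 131560244 to 131560543, counted above, also lie within the annotated gene. The Mad2l1 window ends at 66535270, ahead of the annotated gene start at 66535390.

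Total counts per library were 19304585 to 24202544 in the combination, 16010904 to 21691325 in Aurka inh, 18421904 to 22683616 in PD032, 15234243 to 15703321 in FGF2/Activin and 15199507 to 15818758 in 2iLif. All 8 embryonic stem cell markers had counts in every group, and their summed level was 2413 to 3275 CPM (counts scaled to library size, with TMM factors). Single markers moved further than this sum. Their log2 fold changes over 2iLif ran from -3.43 to 1.90 in FGF2/Activin and from -3.32 to 1.18 in PD032. In the combination over PD032 they ran from -0.81 to 1.86. Summed markers of other cells were 1.53 to 7.66 CPM for primitive endoderm (7 genes), 6.78 to 22.0 for mesoderm (7), 66.7 to 206 for neuroectoderm (7), 12.3 to 91.3 for trophoblast (6) and 2.46 to 20.4 for fibroblasts (7). Neuroectoderm markers were highest in PD032, at 176 to 206 CPM. Of the markers that define these cells, Hand1, Mesp1, Neurog2, Postn, Lum, Dcn and Col3a1 had 0 counts in at least 1 group. The part of such cells in the values below was not tested. In these bulk samples, fewer cells in mitosis and less of an RNA per cell cannot be told apart.

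Replicate 2 stood apart in all 3 inhibitor groups. Counts of replicate 2 differed from those of replicates 1 and 3 with a chi-square per degree of freedom of 9.88 to 19.3, against 2.61 to 6.77 between replicates 1 and 3. Among the 52 members, 32 (61.5%) had replicate 2 as their highest or their lowest library in each of the 3 inhibitor groups, against 41% of all genes tested: 14 were highest there and 18 lowest. These shares are not compared at like noise. The median level was 161 CPM in the members and 18.3 CPM over all genes tested. Pttg1, which encodes securin, the inhibitor of separase, was the clearest of the 32 members. It had 26.1, 48.6 and 26.1 CPM in the combination, 27.4, 50.2 and 30.3 CPM in Aurka inh and 26.3, 48.0 and 30.0 CPM in PD032. The second value was the high one each time, and the 3 inhibitor groups overlapped. Espl1, which encodes separase itself, went the other way, with replicate 2 at 184 CPM against 228 and 203 in the combination, at 175 against 231 and 211 in Aurka inh, and at 174 against 220 and 206 in PD032. Espl1 was picked after its values were seen. Counts of called genes are therefore given beside those without replicate 2 of the 3 inhibitor groups.

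**Figure D2:**
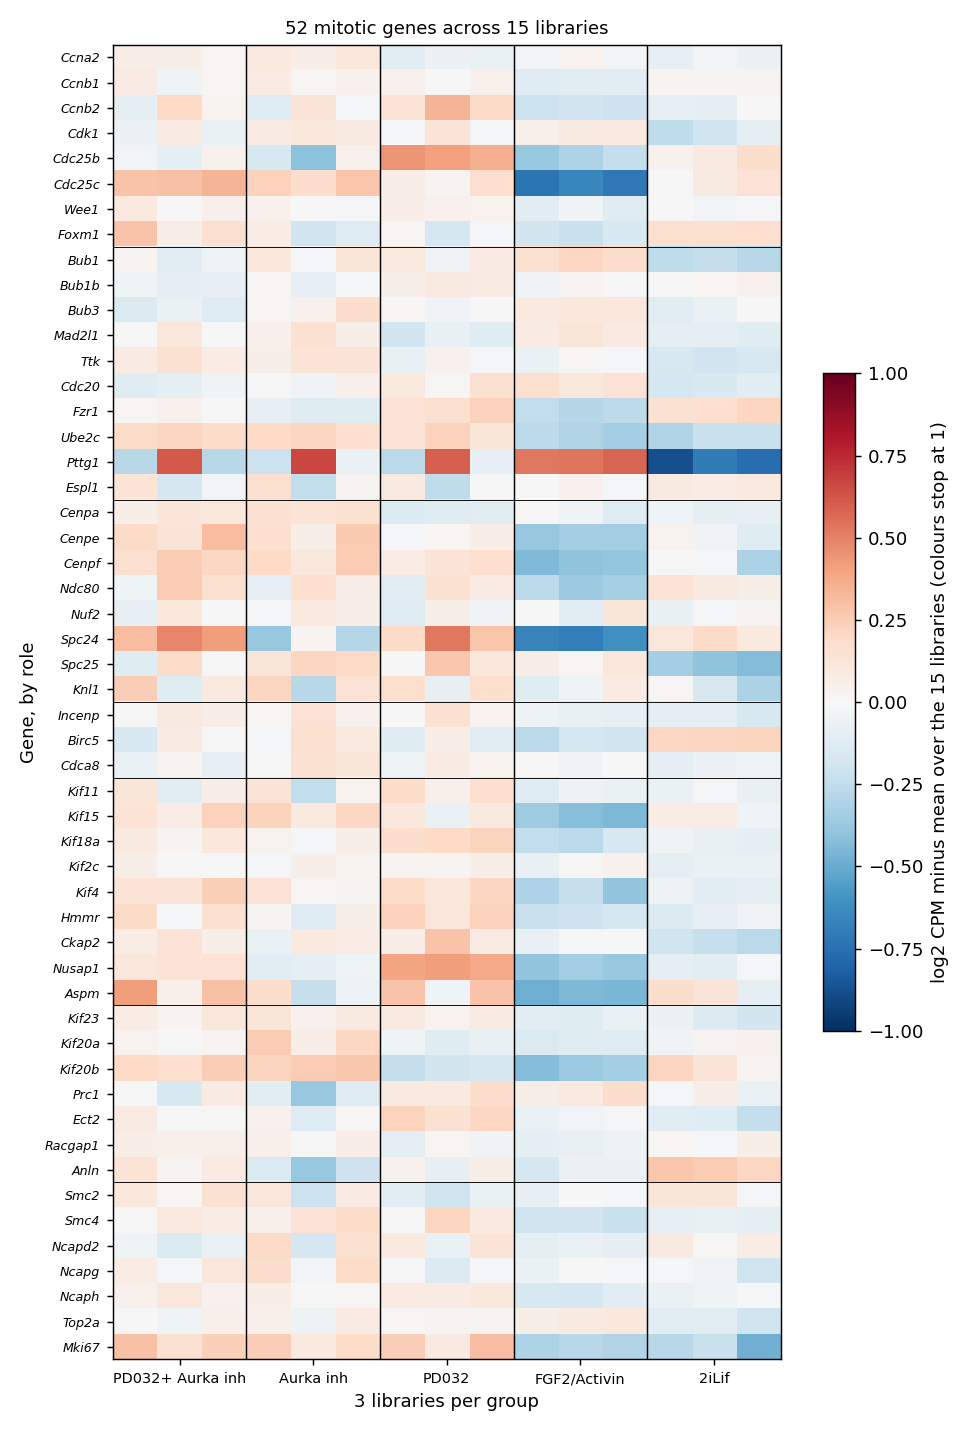
log2 CPM of the 52 genes (rows, ordered by role, lines between roles) in the 15 libraries (columns, 3 per group), each minus the gene's mean over the libraries; colours stop at 1 and -1. The Pttg1 row is high in the middle column of each of the 3 inhibitor groups and in all FGF2/Activin libraries and low in 2iLif, and most other rows stay pale.

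The members were highly expressed, with small spans over the groups. Their mean level over all libraries ran from 21.5 to 1176 CPM with a median of 161, against a median of 18.3 CPM over all genes tested. Over the 5 group means, a member's log2 CPM spanned a median of 0.33, against 0.83 over all genes tested, and over the 3 inhibitor groups alone 0.14 against 0.41. Only Pttg1 (1.32) and Spc24 (1.06) spanned more than 1 on the log2 scale, which is 3.85% of the members against 42.9% of all genes tested. All genes tested include genes down to 0.145 CPM and were not matched to the members for level. Within groups, the root mean square deviation of a library in log2 CPM was 0.032 to 0.14 over the members and 0.18 to 0.29 over all genes tested. Spans and shares within a given fold are therefore not compared at like noise, here and below. Nuf2, of the outer kinetochore, had the narrowest span at 0.08. It was followed by Kif2c, a kinesin that removes tubulin from microtubule ends (0.12), and Racgap1, a GTPase regulator of the midzone (0.13). FGF2/Activin was the lowest of the 5 groups for 26 members and 2iLif for 16. Per kilobase of exon, the 2iLif level was highest for Cdc20 at 144 CPM per kb and Top2a at 119, and lowest for Cdc25c at 5.28, Cdc25b at 6.09 and Kif18a at 6.87.

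Adding the Aurora A inhibitor to PD032 left most of the mitotic genes close to their level. In PD032+ Aurka inh against PD032, 4 of 52 members were higher, 6 were lower and 42 did not pass, so that 19.2% passed against 36.1% of all genes tested (edgeR quasi-likelihood test, Benjamini-Hochberg adjusted p under 0.05). The median log2 fold change was -0.0063 for the members and 0.0099 for all genes tested, and 49 members (94.2%) lay within 1.2-fold, against 50.8% of all genes. No member reached 1.5-fold, which 26.1% of all genes tested did. The 3 libraries of each group did not overlap for 20 members, or 38.5%, against 49.6% of all genes tested. Libraries of the same number deviated together in the inhibitor groups, with r of 0.44 to 0.92 in the members and 0.17 to 0.48 over all genes tested. These r are not compared at like noise, as the median level was 161 CPM in the members and 18.3 CPM over all genes tested. Replicates 1 and 3 of different inhibitor groups also deviated together, with r of 0.42 to 0.76 in the members. With replicate number as a block, 14 members were higher and 13 lower (51.9%, against 56.8% of all genes). The gap to all genes was narrower with the block, so the share called without it cannot be read as a smaller response of the members. Without replicate 2 of the inhibitor groups, 7 were higher and 8 lower, with 44.8% of all genes called. Under all 3 fits the share of members called was below that of all genes.

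Kif20b, a kinesin of the late midzone and abscission (chromosome 19, 34922361 to 34975745), had 267, 263 and 276 CPM in the combination against 198, 206 and 208 CPM in PD032. All 3 combination libraries were above all 3 of PD032, and the log2 fold change was 0.40 ± 0.051 (SE, adjusted p = 0.00016). Cenpa, the histone H3 variant that marks centromeres (chromosome 5, 30666777 to 30674830), had 171, 179 and 178 CPM in the combination against 150, 152 and 153 CPM in PD032. It rose by 0.21 ± 0.048 on the log2 scale with no overlap (adjusted p = 0.0057). Cdc25c, a phosphatase that activates Cdk1, and Foxm1, a transcription factor for late cell cycle genes, also rose, by 0.22 (adjusted p = 0.026) and 0.23 (0.047). Both calls were lost without combination replicate 1 or 3 and without PD032 replicate 1 or 2, and Foxm1 also without PD032 replicate 3. The adjusted p was then up to 0.099 for Cdc25c (without combination replicate 3) and 0.16 for Foxm1 (without combination replicate 1). In the counts, exons of Cdc25c and Foxm1 overlap other genes, on the opposite strand for Cdc25c and on the same strand for Foxm1. Exons of Cdc25b (92 bases), Nusap1 (172), Cdc20 (53) and Fzr1 (4) also overlap genes on the opposite strand, and those of Kif20b and Cenpa do not. The same holds for other members named below, among them Prc1 (911) and Ncapg (944), and on the same strand Ncapd2 (472).

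Cdc25b, a phosphatase that starts Cdk1 activation at centrosomes (chromosome 2, 131186949 to 131198497), had 20.7, 19.7 and 21.7 CPM in the combination against 28.7, 28.1 and 27.2 CPM in PD032. All PD032 libraries were the higher ones, and the log2 fold change of -0.44 ± 0.10 was the largest fall among the members (adjusted p = 0.0069). Nusap1, a microtubule bundler of the spindle (chromosome 2, 119618298 to 119651244), had 136, 138 and 139 CPM in the combination against 165, 168 and 163 CPM in PD032. Its libraries did not overlap either, with a log2 fold change of -0.27 ± 0.050 (adjusted p = 0.002). Smaller falls passed for Cdc20 (-0.17, adjusted p = 0.028), the late activator of the anaphase-promoting complex Fzr1 (-0.16, 0.023), the cytokinesis regulator Ect2 (-0.16, 0.036) and the checkpoint kinase-like Bub1b (-0.15, 0.03). These 4 calls were each lost without PD032 replicate 3 and without combination replicate 2, and in 2 to 4 of the other fits that left out a library, with an adjusted p of up to 0.15. They were also lost with no filter on low counts (up to 0.18).

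Several central genes of division did not pass. Ccnb1, which encodes cyclin B1, had 346, 317 and 332 CPM in the combination against 337, 327 and 338 CPM in PD032, with a 95% interval of -0.12 to 0.10 for the log2 fold change. Cdk1 had 182, 201 and 181 CPM in the combination against 188, 207 and 187 CPM in PD032 (-0.19 to 0.10). In both genes the groups overlapped. The intervals were -0.14 to 0.10 for Top2a, the topoisomerase of mitotic chromosomes, -0.13 to 0.15 for Mki67, the Ki-67 proliferation marker, and -0.30 to 0.09 for Kif11, the kinesin that separates spindle poles. With the block Kif11 passed as lower (adjusted p = 0.02). Of the 3 passenger complex genes (Incenp, Birc5, Cdca8) and the 7 chromosome structure genes none passed without the block. With it the condensin subunits Smc2 (log2 fold change 0.22 without the block, adjusted p = 0.00012 with it) and Ncapg (0.11, 0.013) were higher and Ncapd2 (-0.14, 0.0059) was lower. Smc2 had an adjusted p of 0.053 without the block and passed in 9 of 15 other settings, such as 0.0046 without replicate 2 of the inhibitor groups. Ncapd2 passed there too (0.014). Smc2, Ncapg and Ncapd2 were picked after their values were seen. By role, 3 of 8 cyclin and Cdk1 genes passed, 3 of 10 checkpoint genes, 1 of 8 kinetochore genes, 1 of 9 spindle genes and 2 of 7 cytokinesis genes. With the block these were 5, 7, 3, 4 and 5, beside 0 of the 3 passenger and 3 of the 7 chromosome structure genes.

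**Figure D3:**
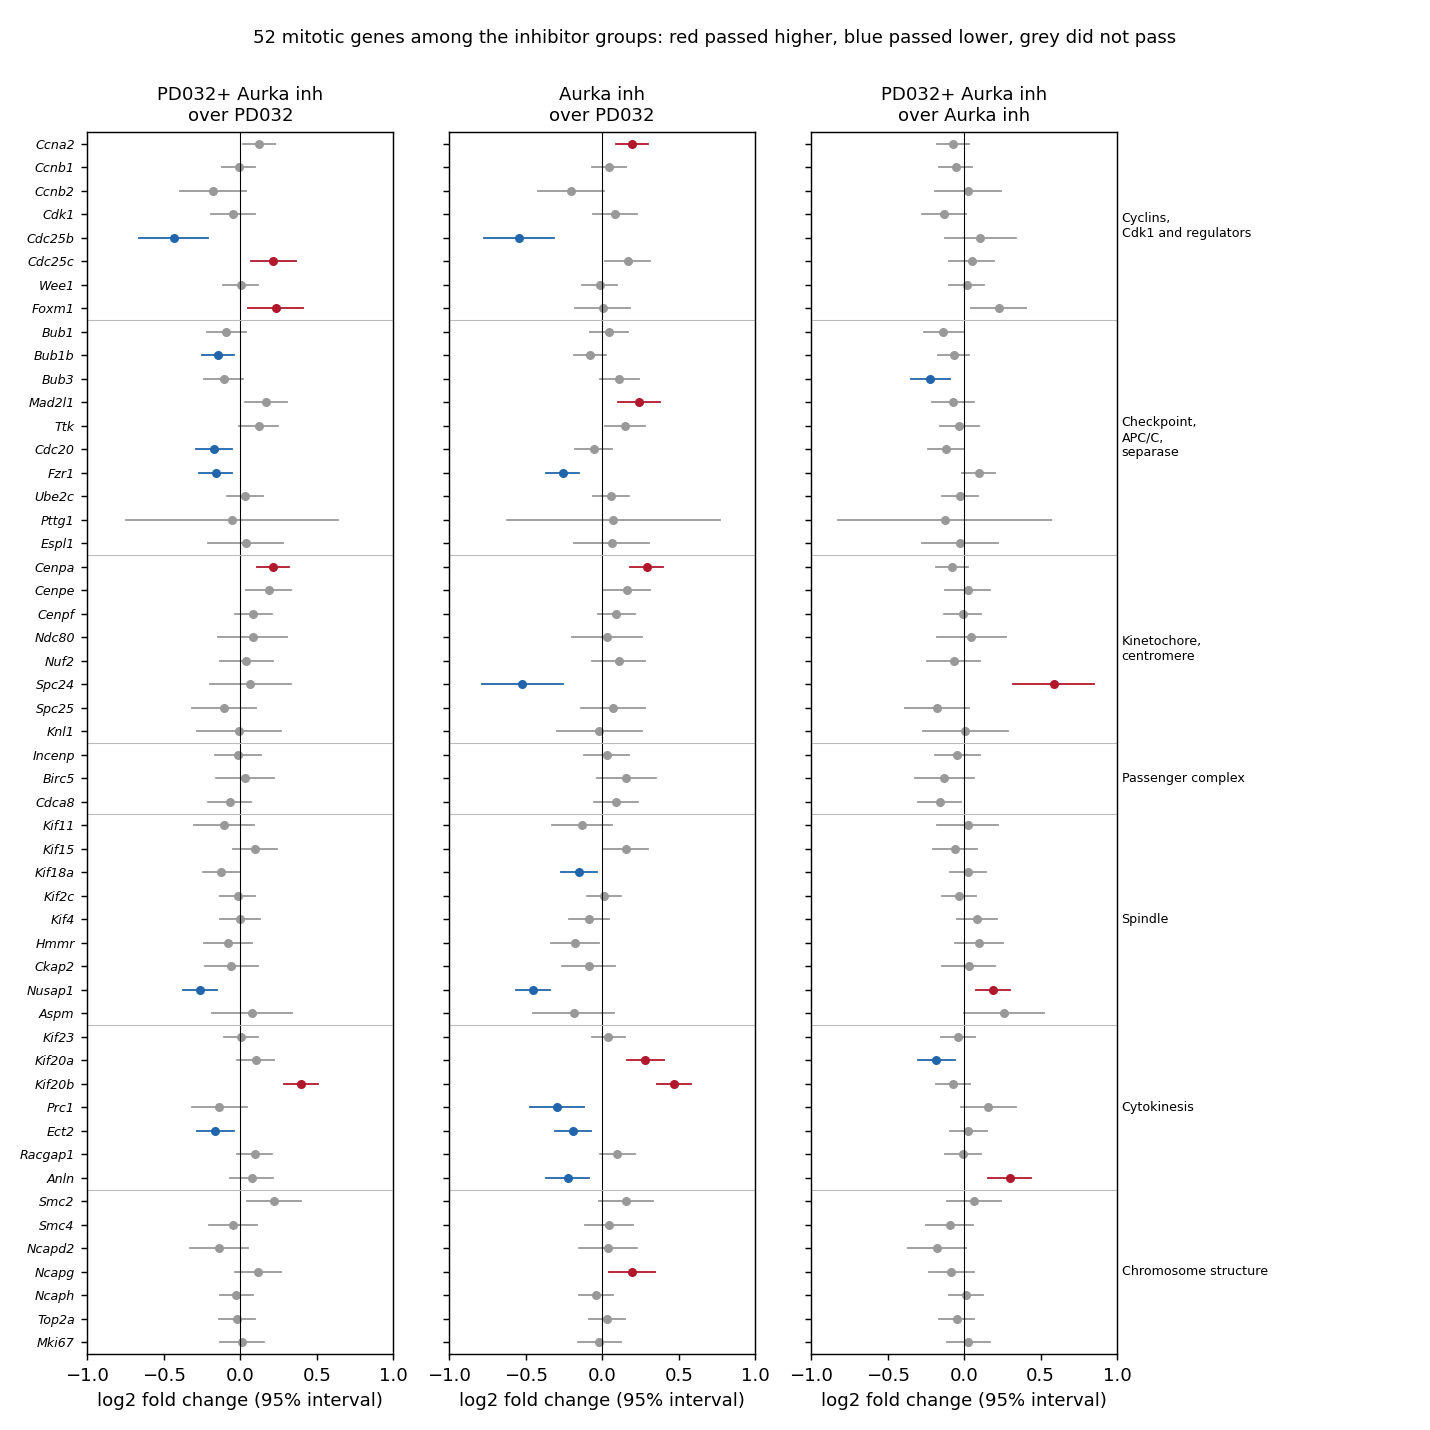
log2 fold change (x axis, points) with 95% intervals (lines) of the 52 genes, ordered by role, in PD032+ Aurka inh over PD032 (left), Aurka inh over PD032 (middle) and PD032+ Aurka inh over Aurka inh (right); red passed higher, blue passed lower, grey did not pass. Most points lie close to 0, Kif20b, Cenpa, Cdc25b and Nusap1 stand off 0 in the left and middle panels, and the Pttg1 interval is the widest.

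With the Aurora A inhibitor in place of PD032, 6 members were higher and 8 lower in Aurka inh than in PD032 (26.9%, against 37.9% of all genes tested). This comparison and the one before it share the PD032 libraries, so their values are not independent. The block gave 18 higher and 13 lower (59.6%, against 57.3% of all genes), and leaving out replicate 2 of the inhibitor groups gave 10 and 10, with 46.2% of all genes called. The median log2 fold change was 0.039 for the members and -0.011 for all genes tested. No member reached 1.5-fold, against 25% of all genes. The libraries did not overlap for 20 members, or 38.5%, against 47.8% of all genes tested.

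Kif20b had 273, 279 and 281 CPM in Aurka inh, above every PD032 library (198 to 208 CPM), and rose by 0.47 ± 0.051 on the log2 scale (adjusted p = 5.1e-05). Cenpa had 183, 181 and 183 CPM in Aurka inh, above 150 to 153 CPM in PD032 (0.29 ± 0.048, adjusted p = 0.00086). Kif20a, a kinesin that carries the passenger complex to the midzone, was also higher without overlap (0.28, adjusted p = 0.0023). Its exons overlap those of Cdc23 on the other strand. Mad2l1, the checkpoint protein Mad2 (0.24, 0.011), and Ccna2, cyclin A2 (0.19, 0.0082), rose less. Ncapg, a condensin subunit, passed at 0.042 with overlapping libraries, and its call was lost without Aurka inh replicate 1 or 3 and without any of the PD032 libraries, with an adjusted p of up to 0.14.

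Cdc25b had 19, 15.8 and 21.7 CPM in Aurka inh, below every PD032 library (27.2 to 28.7 CPM), with a log2 fold change of -0.54 ± 0.10 (adjusted p = 0.002). Nusap1 had 117, 118 and 122 CPM in Aurka inh against 165, 168 and 163 CPM in PD032, and fell by 0.45 ± 0.051 on the log2 scale (adjusted p = 5.9e-05). Spc24, a subunit of the Ndc80 complex that grips microtubules (chromosome 9, 21755442 to 21760303), had 89.8, 119 and 96.0 CPM in Aurka inh against 134, 169 and 142 CPM in PD032. The groups did not overlap, replicate 2 was the highest in both, and Spc24 fell by 0.52 ± 0.12 on the log2 scale (adjusted p = 0.0064). The other Ndc80 complex genes did not pass: Ndc80 had a log2 fold change of 0.03, Nuf2 0.11 and Spc25 0.07. Nuf2 passed with the block (adjusted p = 0.042). Fzr1 had 129, 126 and 126 CPM in Aurka inh against 151, 153 and 160 CPM in PD032 (-0.26, adjusted p = 0.0018). Prc1, which bundles midzone microtubules (-0.30, 0.015), Anln, the anillin scaffold of the contractile ring (-0.23, 0.016), Ect2 (-0.19, 0.017) and Kif18a, a kinesin that aligns chromosomes (-0.15, 0.046), passed as lower. These 4 calls were lost without PD032 replicate 3, with adjusted p of 0.058, 0.066, 0.055 and 0.12. Without PD032 replicate 1 Anln (0.057) and Ect2 (0.06) were lost too, Ect2 also without Aurka inh replicate 2 (0.055), and Kif18a in all 6 such fits. In cytokinesis 5 of 7 genes passed, 2 higher and 3 lower. Cdk1 (0.08) and Kif11 (-0.13) did not pass in Aurka inh against PD032, but did with the block (adjusted p = 0.043 and 0.0058).

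Fewer members were called when PD032 was added to the Aurora A inhibitor than in the comparisons with PD032 above. Fewer of all genes tested were called too (26.6% against 36.1% and 37.9%), so the lower count is not read as particular to the members. In the combination against Aurka inh, 3 members were higher and 2 lower (9.62%, against 26.6% of all genes tested), and 50 of 52 lay within 1.2-fold (96.2%, against 56.1% of all genes). The libraries did not overlap for 9 members, or 17.3%, against 39.9% of all genes tested. With the block 8 were higher and 10 lower (34.6%, against 47.5% of all genes), and without replicate 2 of the inhibitor groups 5 were higher and 5 lower, with 35.9% of all genes called. Spc24 had 145, 164 and 156 CPM in the combination against 89.8, 119 and 96.0 CPM in Aurka inh. The lowest combination library was above the highest of Aurka inh, and the log2 fold change was 0.58 ± 0.12 (adjusted p = 0.005). Anln had 333, 309 and 319 CPM in the combination against 273, 233 and 262 CPM in Aurka inh, with no overlap (0.30 ± 0.063, adjusted p = 0.0055). Nusap1 rose by 0.19 (adjusted p = 0.019). Cdk1 had 182, 201 and 181 CPM in the combination against 201, 204 and 202 CPM in Aurka inh, with replicate 2 of the combination just inside the range of Aurka inh, and did not pass (-0.13, adjusted p = 0.17), although it passed as lower with the block (0.0048) and without replicate 2 of the inhibitor groups (0.024). Bub3, a checkpoint scaffold, had a log2 fold change of -0.22 (0.016) and Kif20a of -0.18 (0.031). The Nusap1 call was lost without combination replicate 3 (0.071) and without Aurka inh replicate 1 (0.063). Bub3 was lost without combination replicate 1 (0.064) or 3 (0.055) and without Aurka inh replicate 3 (0.079), and Kif20a without any of the combination libraries and without Aurka inh replicate 1 or 3, with an adjusted p of up to 0.11.

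**Figure D4:**
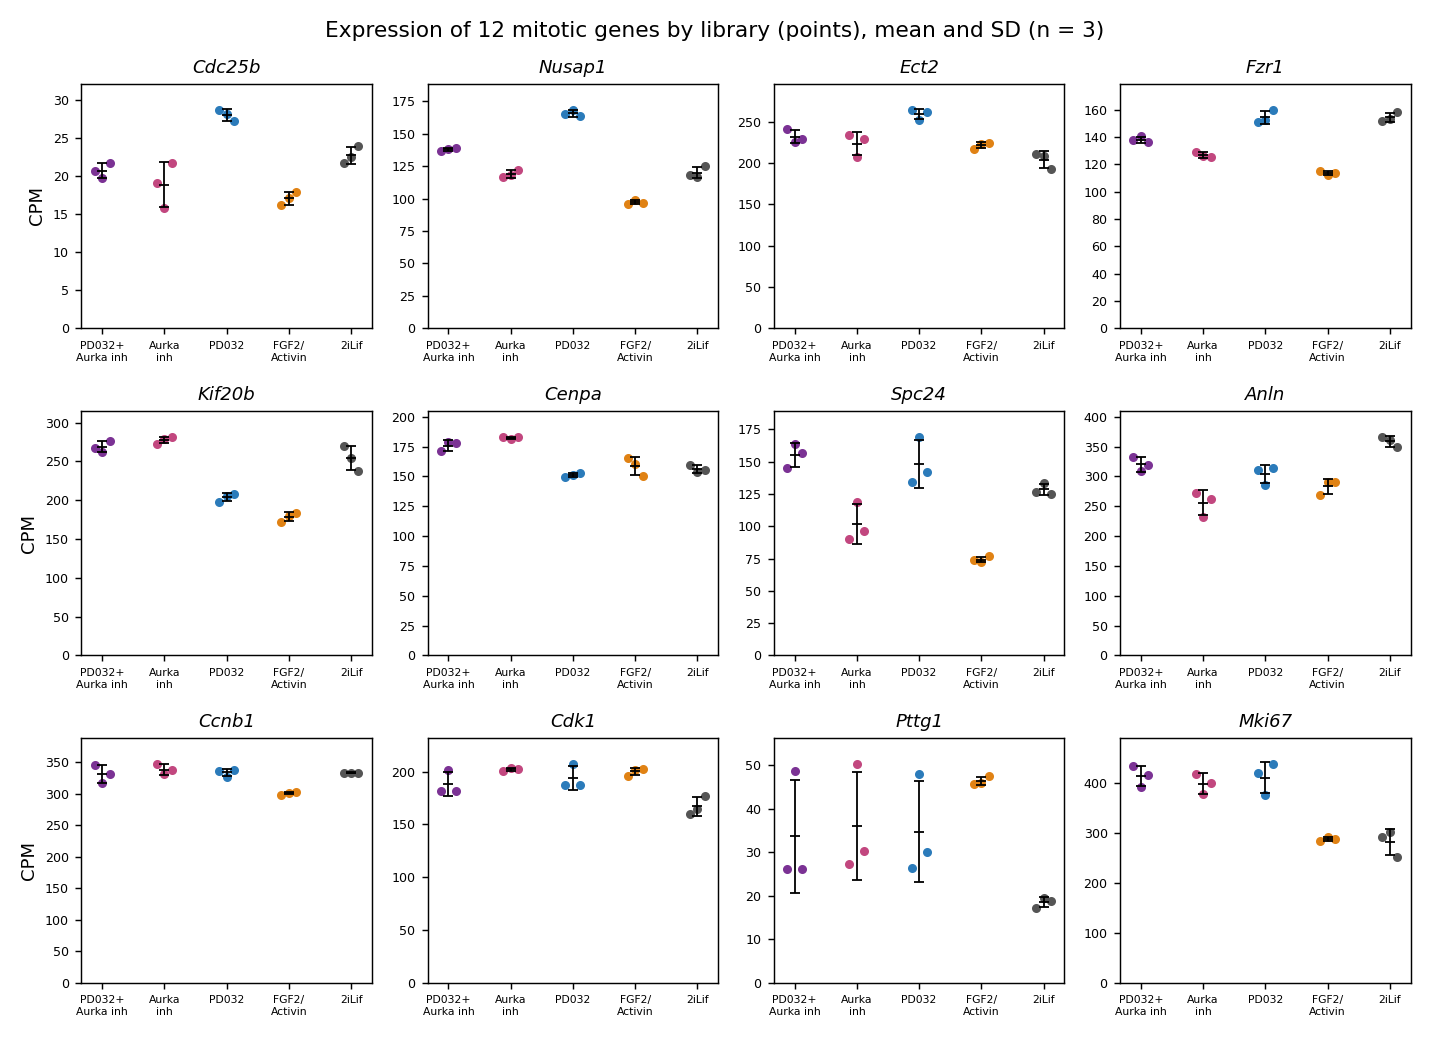
CPM (y axis, from 0) of 12 mitotic genes in each library (points) of the 5 groups (x axis), with the mean and SD (n = 3). Cdc25b and Nusap1 are lower, and Kif20b and Cenpa higher, in both groups with the Aurora A inhibitor than in PD032; Ccnb1 and Cdk1 overlap between the 3 inhibitor groups, and Pttg1 shows the high replicate 2 of each.

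Aurora A and its partners were read alongside. Aurka mRNA had 182, 185 and 178 CPM in the combination, 192, 196 and 207 CPM in Aurka inh and 162, 173 and 157 CPM in PD032. It was higher in Aurka inh than in PD032 (log2 fold change 0.30 ± 0.060, adjusted p = 0.0028), and the difference of the combination over PD032 did not pass (0.15, 95% interval 0.01 to 0.28, adjusted p = 0.082). With the replicate block it did (adjusted p = 0.0051), and likewise without PD032 replicate 2 (0.027). Aurkb, the kinase of the passenger complex, had log2 fold changes of -0.03 for the combination and -0.04 for Aurka inh over PD032, and Tpx2, the spindle activator of Aurora A, of -0.09 and -0.10, none of which passed. Plk1, a kinase that Aurora A activates, was lower in the combination than in Aurka inh (-0.17, adjusted p = 0.026) and did not pass in either group against PD032, although with the block it was lower in the combination (-0.09, adjusted p = 0.035). The call against Aurka inh was lost without combination replicate 1 (0.091) or 3 (0.077) and without Aurka inh replicate 2 (0.059) or 3 (0.082). Of 52 further mitotic genes outside the members, 7 were higher and 4 lower in the combination than in PD032, 8 and 7 in Aurka inh than in PD032, and 5 and 5 in the combination than in Aurka inh. These are 21.2%, 28.8% and 19.2% of them, against 36.1%, 37.9% and 26.6% of all genes tested. Their median log2 fold changes were 0.045, 0.017 and 0.018.

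Against 2iLif more members were higher than lower in each inhibitor group, but these groups also differed in how their files were named. In the combination 22 members were higher and 4 lower than in 2iLif (50% called, against 47.6% of all genes tested). In Aurka inh 28 were higher and 6 lower (65.4% against 58.4%), and in PD032 24 were higher and 5 lower (55.8% against 63%). Without replicate 2 of the inhibitor groups, 28 were higher and 4 lower in the combination (56.4% of all genes called), 31 and 6 in Aurka inh (65%), and 27 and 6 in PD032 (69.9%). Over all genes tested, 23.8% were higher and 23.8% lower in the combination, 28.9% and 29.5% in Aurka inh, and 32.1% and 30.9% in PD032. The median log2 fold changes of the members were 0.115, 0.138 and 0.112, against 0.014, 0.014 and 0.008 over all genes. Libraries did not overlap for 33 members in the combination against 2iLif, 34 in Aurka inh and 36 in PD032 (63.5%, 65.4% and 69.2%), against 56.9%, 62.8% and 68.1% of all genes tested. The 3 comparisons share the 2iLif libraries. The members took 1.04% to 1.11% of the counts in the 9 inhibitor libraries and 0.945% to 0.980% in the 6 libraries of FGF2/Activin and 2iLif, which carry the other style of file name, so medium and library set cannot be told apart here.

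Mki67 had 433, 392 and 416 CPM in the combination, 418, 377 and 399 CPM in Aurka inh and 419, 375 and 437 CPM in PD032, against 291, 302 and 252 CPM in 2iLif. All 9 inhibitor libraries were above all 3 of 2iLif, with log2 fold changes of 0.54, 0.50 and 0.53 and adjusted p of 5.3e-06, 7e-06 and 3.2e-06. Ube2c, the ubiquitin-conjugating enzyme of the anaphase-promoting complex, had 280 to 287 CPM in the combination, 278 to 287 CPM in Aurka inh and 269 to 290 CPM in PD032, against 200 to 213 CPM in 2iLif. Its log2 fold changes were 0.43, 0.45 and 0.40, again with no overlap. Spc25, an Ndc80 complex subunit, rose by 0.41, 0.57 and 0.51, and Bub1, a checkpoint kinase, by 0.21, 0.33 and 0.30. Pttg1 rose by 0.84, 0.96 and 0.90 (adjusted p = 0.02, 0.0076 and 0.0099), and without replicate 2 of the inhibitor groups these were 0.49, 0.63 and 0.59, still with adjusted p of 1.2e-05, 2.1e-07 and 4.9e-07. The Pttg1 call was lost without replicate 2 of the combination alone (adjusted p = 0.13) and without 2iLif replicate 1 (0.064) or 3 (0.051) in that comparison, and without replicate 2 of PD032 alone (0.062) in the other.

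Some members took different sides of the 2iLif level. Anln fell in all 3 groups against 2iLif, where it had 366, 361 and 349 CPM, with log2 fold changes of -0.17 in the combination, -0.48 in Aurka inh and -0.25 in PD032. The call in the combination was lost without its replicate 2 (adjusted p = 0.063) and without 2iLif replicate 1 (0.059). Kif20b fell in PD032 (-0.33, adjusted p = 3.3e-05) and rose in Aurka inh (0.13, 0.035), with 0.07 in the combination, which did not pass. Cdc25b rose in PD032 (0.29, adjusted p = 0.0099) and fell in Aurka inh (-0.26, 0.024), with -0.14 in the combination, which did not pass. Nusap1 rose in PD032 (0.46, adjusted p = 1.5e-07) and in the combination (0.19, 0.0018), and had -0.01 in Aurka inh. Fzr1 fell in Aurka inh (-0.28, adjusted p = 1.7e-05) and in the combination (-0.17, 0.0021), and had -0.01 in PD032. The Aurka inh calls of Kif20b and Cdc25b were lost in 4 and 3 of the 6 fits that left out a library, both without Aurka inh replicate 2 (adjusted p = 0.079 and 0.11) and without 2iLif replicate 3 (0.13 and 0.099).

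FGF2/Activin against 2iLif gave the largest differences of single members. With 14 members higher and 25 lower, 75% passed, against 74.3% of all genes tested, and 33 members (63.5%) lay within 1.2-fold, against 31.8% of all genes. The libraries did not overlap for 40 members (76.9%), against 75.8% of all genes tested. The spread within both groups was small, with a biological coefficient of variation of 1.80% in FGF2/Activin and 4.53% in 2iLif, against 8.88% to 11.1% in the inhibitor groups, so that differences of under 10% passed here. The median log2 fold change was -0.065 for the members and -0.011 over all genes. Pttg1 had 45.6, 46.0 and 47.4 CPM in FGF2/Activin against 17.2, 19.5 and 18.7 CPM in 2iLif, far apart with no overlap (1.33 ± 0.062, adjusted p = 1.3e-16). Bub1 had 264, 275 and 269 CPM in FGF2/Activin against 200, 203 and 197 CPM in 2iLif (0.44), and Cdc20 had 333, 322 and 330 CPM against 264, 268 and 275 CPM (0.30). Of the 10 checkpoint genes 6 were higher and 1 was lower. Cdk1 (0.27), Spc25 (0.47) and Top2a (0.23) rose as well.

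The 25 members that were lower in FGF2/Activin than in 2iLif came from all 7 roles. Spc24 had 73.6, 72.5 and 76.6 CPM in FGF2/Activin against 127, 134 and 125 CPM in 2iLif, with no overlap (-0.78 ± 0.040, adjusted p = 1.1e-15), while its partner Spc25 was higher. Cdc25c had 14.8, 15.6 and 15 CPM in FGF2/Activin against 24.7, 26.2 and 27.1 CPM in 2iLif (-0.77 ± 0.074, adjusted p = 4.9e-10). Aspm, a spindle pole protein, fell by 0.53 on the log2 scale, Kif20b by 0.50, Kif15, a spindle kinesin that works with Kif11, by 0.44, Fzr1 by 0.43, Birc5, which encodes survivin of the passenger complex, by 0.42 and Ndc80 by 0.41. Spindle genes counted 2 higher and 6 lower of 9, cytokinesis genes 2 and 4 of 7, chromosome structure genes 1 and 4 of 7, and cyclin and Cdk1 genes 1 and 5 of 8. Ccnb1 fell by 0.14 (adjusted p = 0.00021). Mki67 (0.04) and Ube2c (-0.04), both higher in the inhibitor groups, did not pass in this comparison. Of the 52 further mitotic genes, 9 were higher and 27 lower in FGF2/Activin (69.2%, against 74.3% of all genes tested), with a median log2 fold change of -0.10.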

How the data were processed

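Gene counts of 15 libraries were used as the authors deposited them, whole numbers per gene. The log2 values the authors deposited served as a check over 4312 genes, those whose counts averaged 1000 or more. Each library's difference from the first library was compared with that in log2 counts scaled by DESeq2 size factors. The median gap was 0.0073, with the first library itself counted in. Levels, and genes with lower counts, were not compared, and the lowest deposited value was 5.57. Per the submitters' processing notes, STAR, DESeq2 and mm10 were used. What versions, counter, annotation or strand option applied is not given in the sources used here, so overlapping genes on either strand and pseudogenes (of Ccnb1, Ccnb2 and Kif4) may share counts. The labels' protocols name a directional library kit.

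Counts were filtered with filterByExpr (15223 genes kept), scaled by TMM and tested with the quasi-likelihood test of edgeR 4.0.16 (R 4.3.3), two-sided, with Benjamini-Hochberg adjustment over all genes tested and a threshold of 0.05. Comparisons among inhibitor groups were fitted on their 9 libraries, FGF2/Activin against 2iLif on those 6, and inhibitor groups against 2iLif on all 15, because the spread differed (common biological coefficient of variation 9.70%, 3.54% and 7.65%). For log2 CPM the prior count was 2. Depth was 15199507 to 24202544 counts per library, and intervals cover the spread between these libraries only.

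The labels number replicates 1 to 3. Deviations from the group mean of libraries with the same number correlated across genes in all 9 pairs of inhibitor groups (r from 0.17 to 0.48). Genes are not independent replicates. Between FGF2/Activin and 2iLif they did not correlate (-0.026 to 0.0071), so the block is given beside the main fit. Unlike numbers 1 and 3 also correlated among the inhibitor groups (r from 0.078 to 0.22). Deviations from a group mean sum to 0, so these values do not separate a pairing of all 3 numbers from replicate 2 standing apart. Replicates of a group differed beyond sampling noise in every pair.

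Named were, in each comparison, up to 3 higher and 3 lower passing members of each role, all passing members in the combination against PD032, and a fixed set of central genes. The members and gene lists were chosen with earlier results of these data known. Alternatives used library size alone, DESeq2 1.42.0, its size factors, no filter, the block, other library sets, limma 3.58.1 on the deposited log2 values, and single libraries left out. Leaving out replicate 2 of the inhibitor groups and limma were chosen after the data were seen. The fits were tested on simulated data. Those were drawn without any deviation shared by libraries of the same number, so they do not cover such shared deviation in the inhibitor groups.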

Additional observations from a re-analysis of the deposited data

How the results depend on the processing

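With replicate number as a block, members higher and lower were 14 and 13 in the combination against PD032, 8 and 10 in the combination against Aurka inh, and 18 and 13 in Aurka inh against PD032. Every member that passed in these comparisons passed with the block, and in the 4 comparisons with 2iLif the block kept all counts within 1.5 times (for example 14 higher and 24 lower in FGF2/Activin).

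In the combination against PD032, 2 members were higher with library size alone, 7 with DESeq2, 8 with all 15 libraries in the fit and 7 without replicate 2 of the inhibitor groups, and 2 were lower with no filter. In the combination against Aurka inh, 5 were higher with no filter, with all 15 libraries and without replicate 2, 0 were lower with no filter, 1 with both groups alone in the fit, and 5 without replicate 2. In Aurka inh against PD032, 10 were higher without replicate 2. Lower members numbered 2 with library size alone and with no filter in the combination against 2iLif, and 3 with library size alone in PD032 against 2iLif.

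Leaving out single libraries gave 2 to 6 higher and 2 to 5 lower in the combination against PD032, 2 to 4 and 0 to 3 in the combination against Aurka inh, and 5 to 8 and 4 to 7 in Aurka inh against PD032. Against 2iLif the ranges were 16 to 21 and 2 to 4 for the combination, 21 to 26 and 4 to 6 for Aurka inh, 20 to 23 and 4 to 5 for PD032, and 11 to 15 and 22 to 25 for FGF2/Activin. The causes were not tested, beyond the fewer libraries in these fits.

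Passing in every setting were 4 of 10 members in the combination against PD032 (Cdc25b, Cenpa, Nusap1, Kif20b), 2 of 5 in the combination against Aurka inh (Spc24, Anln), 9 of 14 in Aurka inh against PD032, 28 of 39 in FGF2/Activin against 2iLif, 22 of 34 in Aurka inh, 14 of 26 in the combination and 20 of 29 in PD032, each against 2iLif.

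Of the named genes in the comparisons where they were named, 4 turned sign, all without a call, in the combination against PD032. Ccnb1 had 0.0025 with no filter, 0.0047 without replicate 2 of the inhibitor groups and from -0.037 to 0.039 with single libraries left out, and Cdk1 had -0.078 to 0.014 with single libraries left out. Top2a had 0.0059 without replicate 2 of the inhibitor groups and -0.050 to 0.023 with single libraries left out. Mki67 had -0.035 with library size alone, -0.013 without replicate 2 of the inhibitor groups, and -0.041 to 0.067 with single libraries left out. Of 1959 values for named genes under other settings, 1763 kept their side of the threshold and direction.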

Other observations

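Cdkn1a, which encodes the Cdk inhibitor p21, had 141, 154 and 132 CPM in the combination and 195, 179 and 198 CPM in Aurka inh, against 63.7, 60.9 and 62.4 CPM in PD032. All libraries of both groups were above PD032, with log2 fold changes of 1.19 (edgeR adjusted p = 4.2e-07) and 1.64 (5.1e-08). Pmaip1, a cell death gene, had 10.7 to 11.8 CPM in the combination and 64.1 to 87.4 CPM in Aurka inh, against 7.73 to 10.4 CPM in PD032. It was higher in Aurka inh than in PD032 (log2 fold change 3.02, adjusted p = 1.5e-07) and did not pass in the combination over PD032 (0.29, 0.16). Among the p53 targets that were lower, Btg2, an antiproliferative gene, had log2 fold changes of -1.07 in the combination and -1.18 in Aurka inh over PD032, and Mdm2, the ligase that restrains p53, of -0.24 and -0.26. Of 15 p53 targets, 1 was higher and 5 lower in the combination than in PD032, and 2 and 7 in Aurka inh than in PD032, with median log2 fold changes of -0.17 and -0.26. These counts are 40% and 60% of the list, against 36.1% and 37.9% of all genes tested. Pmaip1, Btg2 and Mdm2 were chosen after their values were seen, as were Ccne1 and Ccne2 below, and both comparisons share the PD032 libraries. Against 2iLif, 8 of the 15 p53 targets were higher and 0 lower in the combination, 9 and 1 in Aurka inh, and 12 and 1 in PD032. These are 53.3%, 66.7% and 86.7% of the list, against 47.6%, 58.4% and 63% of all genes tested. The median log2 fold changes over 2iLif were 0.35, 0.23 and 0.51, where medium and library set cannot be told apart.

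Of 20 DNA replication genes, 5 were higher and 1 lower in the combination than in PD032, and 8 higher and 0 lower in Aurka inh than in PD032. These counts are 30% and 40% of the list, against 36.1% and 37.9% of all genes tested. The gene lower in the combination was Ccne1, which encodes cyclin E1, with 110, 95.9 and 117 CPM in the combination against 163, 154 and 164 CPM in PD032 (log2 fold change -0.58, adjusted p = 0.00036). Its relative Ccne2 rose by 0.33 in the combination and by 0.66 in Aurka inh. Against 2iLif, 13 of the 20 were lower and 0 higher in PD032, and 12 were higher and 5 lower in FGF2/Activin (65% and 85%, against 63% and 74.3% of all genes tested). In the combination 7 were lower and 1 higher than in 2iLif, and in Aurka inh 7 and 4 (40% and 55%, against 47.6% and 58.4%). Median log2 fold changes over 2iLif were -0.21 in PD032, -0.12 in the combination, 0.00015 in Aurka inh and 0.15 in FGF2/Activin.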
